A study of Mus musculus with 24 samples.

Results

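The comparison was between regulatory T cells (Tregs) of control mice on a high-fat diet and those of control mice on chow, over 96 genes. Its members were 7 of the 24 samples of the series, chosen by their titles alone: 4 control mice on the high-fat, high-sucrose diet (HFD) and 3 on normal chow (NCD). All 7 were male C57/Bl6 mice of the genotype Foxp3-YFP-Cre with wild-type Insr. The diets began at 3 weeks of age and ran for 13 weeks, so the mice were 16 weeks old at analysis. Each sample was 1 animal, whose visceral adipose tissue (VAT) was digested on its own. The sort kept cells positive for CD45, CD4 and the Foxp3 YFP reporter, and their lysates were read with a custom NanoString panel, which counts RNA molecules by hybridised barcoded probes without amplification. Controls and knockouts alike carried the Cre allele in Foxp3, and the labels report that this allele can also recombine outside Tregs. The sources used here give no body weight, insulin level or number of sorted cells for a mouse.

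Tregs are CD4 T cells that hold immune responses in check under the transcription factor Foxp3. Those of visceral fat form a distinct tissue population in lean mice: they carry the IL-33 receptor, depend on the transcription factor PPARγ, and restrain inflammation of the fat. Obesity is known to lower the number of such cells in mice. The question was which panel genes differ between control Tregs of the 2 diets.

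Foxp3 was detected in all 7 samples, at 2126 to 4986 signal units on HFD and 2107 to 4721 on NCD. The deposited signal is the count of a gene multiplied by a factor per sample, which sets the panel total near 100000. Counts read back from these values summed to 24005 to 152648 per HFD mouse and 17371 to 141932 per NCD mouse. The 96 values added up to more than 100000 in the NCD mice, by 9.98%, 3.37% and 26.7% for replicates 1, 2 and 3, and by 0.0709% to 4.90% in the HFD mice. Across the 96 genes Pearson's r of log2 values was 0.863 to 0.941 within HFD, 0.896 to 0.914 within NCD and 0.732 to 0.873 between the diets, and genes are not independent replicates. HFD replicate 3 stood apart for several genes, and the calls made without it are given below. Of the markers of other cells, 1 of 16 for macrophages and monocytes was on the panel (Lyz2, 33.4 to 453 on HFD and 48.2 to 422 on NCD) and 1 of 12 for stromal and endothelial cells (Igfbp7, 17.1 to 1151 and 476 to 719.6). The T cell receptor gene Tcra ran from 545 to 2406 on HFD and from 125 to 1767 on NCD. The diets overlapped for all 3, and their part in the results was not tested.

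Control Tregs of HFD mice had less RNA of the IL-33 receptor, the IL-2 receptor chain CD25, 2 neutrophil chemokines, 2 proprotein convertases, Pparg and IL-10, and more of the lymph node homing receptor Ccr7 and of Fos. Of the 96 genes, 20 passed the test (20.8%), 17 of them lower on HFD (17.7%) and 3 higher (3.12%). The test was limma on log2(signal + 1), with Benjamini-Hochberg adjustment over the 96 genes and a threshold of 0.05; fold changes are on that scale. In 30 of the 96 genes (31.2%) no HFD mouse overlapped an NCD mouse, 24 lower and 6 higher, and 19 of the 20 that passed were among them. The exception was Myadm. The median log2 fold change of all 96 genes was -0.52. Centring each sample on its own median moved it to 0.10 and called 18 genes, 6 of them higher, while centring on 4 reference genes moved it to -0.86 and called 25, with 2 higher. All fold changes are relative to the panel total unless a centring is named, and those of the 20 genes kept their sign under both centrings. In cells taken as bulk, fewer cells of a type and less RNA per cell cannot be told apart.

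**Figure D1:**
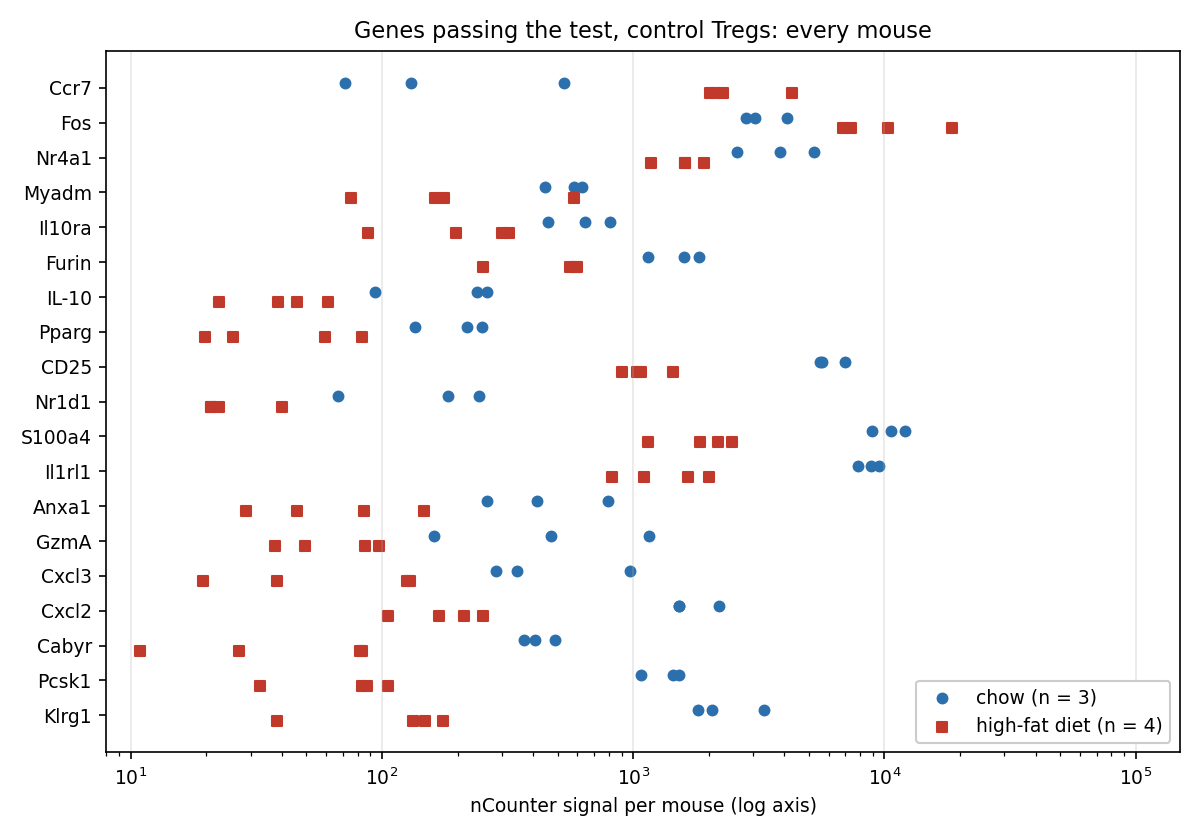
nCounter signal (horizontal log axis) of 19 of the 20 genes that passed, with 1 point per mouse: circles for the 3 NCD mice and squares for the 4 HFD mice. The diets are separate for every gene drawn except Myadm, where HFD replicate 3 at 582 lies among the NCD mice.

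All 3 genes on the list of cytokine receptors fell on HFD (100%, beside 17.7% of all panel genes). The list median was -2.46 beside -0.52 for all genes. Il9r, another cytokine receptor gene of the panel, was not on the list and did not pass (log2 change -1.42, SE 0.85, adjusted p = 0.246). LeptinR, given below, was not on this list either and did not pass. Il1rl1 encodes ST2, the receptor for IL-33, a cytokine that expands fat Tregs. Its signal was 1652, 1109, 822 and 1997 in the 4 HFD mice and 8872, 9503 and 7847 in the 3 NCD mice. Every HFD mouse was below every NCD mouse, and the mean fell 6.61-fold (log2 change -2.73, SE 0.54, adjusted p = 0.000825). CD25, which gives the IL-2 receptor its high affinity and is a defining surface protein of Tregs, had a signal of 1071, 1034, 904 and 1438 on HFD and 5649, 5534 and 6956 on NCD. It too was separate between the diets, with little spread within either (5.49-fold lower, log2 change -2.46, SE 0.59, adjusted p = 0.00329). Il10ra, the ligand-binding chain of the IL-10 receptor, had 198, 87.9, 302 and 321 on HFD and 812, 643 and 456 on NCD. The gap between the groups was narrower here (log2 change -1.61, SE 0.46, adjusted p = 0.0113). The call was lost without HFD replicate 2 (adjusted p = 0.0567) or NCD replicate 1 (0.0704), with median centring (0.103) and when only the 7 mice were fitted (0.0779).

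Of 17 genes on a list of visceral adipose Treg genes, 4 fell, none rose and 13 did not pass, with a median of -1.49. The share that fell, 23.5%, was near the 17.7% of all panel genes. Besides Il1rl1 these were Klrg1, IL-10 and Pparg. Klrg1 is an inhibitory receptor of terminally differentiated effector cells. It had a signal of 149, 38.0, 175 and 133 on HFD and 1811, 3314 and 2064 on NCD. This was the widest gap of all genes on the log2 scale, 21.3-fold lower (log2 change -4.42, SE 0.92, adjusted p = 0.00121). Pparg, the nuclear receptor that directs the fat Treg programme, had 59.1, 19.7, 25.6 and 83.4 on HFD and 219, 249.9 and 136 on NCD. No HFD mouse reached the lowest NCD mouse (log2 change -2.26, SE 0.49, adjusted p = 0.00148), although these signals rest on only 20 to 33 counts in each HFD mouse. Gata3 and Areg did not pass. Gata3, a transcription factor that fat Tregs share with Th2 cells, had 1352, 1125, 991 and 1296 on HFD and 1716, 1934 and 1968 on NCD. Its groups did not overlap, yet it did not pass (log2 change -0.66, SE 0.60, adjusted p = 0.458). Areg, which encodes the repair factor amphiregulin, had 882, 930.0, 1346 and 884 on HFD and 1412, 988 and 1245 on NCD, with overlapping groups (log2 change -0.27, SE 0.50, adjusted p = 0.723); its sign turned with median centring. The next on the list by p were Ccr1 (-2.14), Ccr2 (-1.51) and Prdm1 (-1.23), with adjusted p of 0.0616, 0.0616 and 0.0692. They encode 2 receptors for inflammatory chemokines and the transcription factor Blimp-1, and none of their HFD mice overlapped an NCD mouse. Their calls depended on the setting: Ccr1 and Ccr2 each passed in 8 of 21 alternatives and Prdm1 in 6, all 3 of them with reference gene centring (0.0452, 0.0336 and 0.0297).

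Of 8 genes on the list of suppressive effectors, 3 fell (37.5%, beside 17.7% of all panel genes) and 5 did not pass, with a median of -0.97. TGFb and Perforin are such genes too, but their panel names had no single match, so this list left them out. Neither passed: Perforin had a log2 change of -0.70 (SE 0.62, adjusted p = 0.446) and TGFb of 0.72 (SE 0.40, adjusted p = 0.207). TGFb was higher in every HFD mouse than in every NCD mouse and passed with median centring (0.0225). The list members that fell were IL-10, Furin and GzmA. IL-10, the cytokine through which fat Tregs restrain inflammation, had a signal of 22.4, 38.7, 61.2 and 45.9 on HFD and 238, 262 and 93.7 on NCD. NCD replicate 3 was the lowest of its group and still above all HFD mice (4.47-fold lower, log2 change -2.16, SE 0.45, adjusted p = 0.00121). Counts of IL-10 were 11, 59, 79 and 11 in the HFD mice, so 2 of these values have a wide counting error. GzmA, a cytotoxic serine protease, had 85.5, 49.2, 96.9 and 37.5 on HFD and 162, 470.1 and 1155 on NCD. Its value in HFD replicate 4 rested on 9 counts. The NCD mice spread over a wide range, and the call (log2 change -2.81, SE 0.82, adjusted p = 0.0119) was lost without NCD replicate 3 (adjusted p = 0.0905). GzmB, its relative, was lower in every HFD mouse (23.0 to 44.8) than in every NCD mouse (92.0 to 238) but did not pass (log2 change -1.99, SE 0.77, adjusted p = 0.0692). GzmB passed when only the 7 mice were fitted (0.0239), with reference gene centring (0.0336) and with a pseudocount of 10 (0.0469).

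The proprotein convertases Pcsk1 and Furin fell. These enzymes cut precursor proteins into active forms: Pcsk1 does so for hormones such as proinsulin, and Furin for many proteins, TGF-β among them. Pcsk1 had a signal of 83.5, 106, 32.6 and 87.5 on HFD and 1526, 1440 and 1076 on NCD. The lowest NCD mouse was far over the highest HFD mouse (18.5-fold lower, log2 change -4.21, SE 0.63, adjusted p = 5e-05). Furin had 595, 558, 253 and 600.3 on HFD and 1599, 1833 and 1149 on NCD. It was separate between the groups as well, with HFD replicate 3 the lowest mouse (log2 change -1.66, SE 0.44, adjusted p = 0.00743), but did not pass with median centring (adjusted p = 0.0805).

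Of 3 genes on the list of inflammatory chemokines and NF-κB regulators, 2 fell (66.7%, beside 17.7% of all panel genes), and the median was -2.92. Cxcl2 and Cxcl3, genes of closely related chemokines that attract neutrophils, moved together. Cxcl2 had a signal of 253, 169, 105 and 213 on HFD and 2195, 1517 and 1520 on NCD, which gave it the smallest p of all 96 genes (9.71-fold lower, log2 change -3.28, SE 0.45, adjusted p = 2.21e-05). Cxcl3 had 126, 38.0, 19.4 and 129 on HFD and 967, 286 and 344 on NCD. Here too the diets were separate, and NCD replicate 1 was the highest (log2 change -2.92, SE 0.78, adjusted p = 0.00743); without that mouse the call was lost (adjusted p = 0.0646). Nfkbid, an inhibitor-like regulator of NF-κB, had 447 to 1517 on HFD and 1172 to 1328 on NCD and did not pass (log2 change -0.69, SE 0.75, adjusted p = 0.532).

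The 120 bases before the annotated start are printed for Cxcl2, Cxcl3 and Pcsk1, which fell, and for Fos, which rose. They come from RefSeq on build GRCm38.p6 and run 5′ to 3′ on the strand of the gene, with the start just after the last base. Capitals mark matches, on either strand, to 4 short motifs: a κB-like motif (GGG, 3 bases of any kind, then TTCC), the cAMP response element TGACGTCA, its core TGACGT and the TATA box TATAAA. They were searched in all 32851 RefSeq windows of this length. The core lies within the full element, and matches on the 2 strands can overlap.
Cxcl2 (chr5:90903779-90903898, + strand): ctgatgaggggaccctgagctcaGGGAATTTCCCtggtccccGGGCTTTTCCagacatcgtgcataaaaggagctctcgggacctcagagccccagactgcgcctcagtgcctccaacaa
Cxcl3 (chr5:90785981-90786100, + strand): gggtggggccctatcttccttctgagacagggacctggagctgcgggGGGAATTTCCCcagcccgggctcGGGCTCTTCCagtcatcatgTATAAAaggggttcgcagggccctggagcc
Pcsk1 (chr13:75089737-75089856, + strand): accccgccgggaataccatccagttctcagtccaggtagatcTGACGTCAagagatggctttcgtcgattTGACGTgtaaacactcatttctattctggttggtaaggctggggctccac
Fos (chr12:85473770-85473889, + strand): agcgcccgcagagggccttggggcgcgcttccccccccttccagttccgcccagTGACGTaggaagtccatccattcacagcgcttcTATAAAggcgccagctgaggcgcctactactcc

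Cxcl2 and Cxcl3 each held κB-like matches, which 2.42% of those windows hold, the first from base -97 in Cxcl2 and from base -73 in Cxcl3, counted back from the start. Pcsk1 held the full cAMP response element from base -78, found in 1.24% of windows, and the core again from base -50. Fos held the core from base -66, found in 4.55% of windows, and the TATA box, found in 6.34%. The matches are descriptions of the letters and not binding sites.

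Of 4 genes on the list of S100 proteins and annexins, 2 fell (50.0%, beside 17.7% of all panel genes) and none rose, with a median of -2.10. The list also holds Lgals3, which is neither, had 3 to 8 counts in each mouse and did not pass. S100a4, a calcium-binding protein linked to cell motility, was among the most abundant genes of NCD Tregs. It had a signal of 2481, 1147, 1842 and 2184 on HFD and 12095, 10592 and 8906 on NCD, a clear separation (5.68-fold lower, log2 change -2.51, SE 0.39, adjusted p = 6.11e-05). Anxa1, a phospholipid-binding protein with anti-inflammatory actions, had 147, 28.9, 84.5 and 45.9 on HFD and 416, 791 and 262 on NCD. All HFD mice were lower (log2 change -2.77, SE 0.61, adjusted p = 0.00153), although HFD replicate 4 rested on 11 counts. S100a6 was lower in each HFD mouse (89.6 to 504) than in each NCD mouse (650.3 to 715), with a wide spread on HFD, and did not pass (log2 change -1.69, SE 0.78, adjusted p = 0.137).

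Ccr7, the chemokine receptor that guides T cells into lymph nodes, showed the strongest rise. Its signal was 2285, 4294, 2018 and 2130 on HFD and 130.1, 71.4 and 529 on NCD. HFD replicates 1, 3 and 4 were close together and replicate 2 was higher, while NCD replicate 3 was the highest chow mouse (14.9-fold higher, log2 change 3.89, SE 0.64, adjusted p = 9.6e-05). The lowest NCD mouse had 12 counts of Ccr7. Cxcr4, the receptor for CXCL12, was higher in every HFD mouse (3780 to 5549) than in every NCD mouse (916 to 3562) and did not pass (log2 change 1.07, SE 0.54, adjusted p = 0.157). Cxcr4 passed in 1 of 21 alternatives, median centring (adjusted p = 0.013), and its log2 change was 0.47 without NCD replicate 2, the lowest mouse (adjusted p = 0.634).

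The list of immediate early and stress factors, genes switched on within minutes of a stimulus, had members that moved in opposite directions. Of 6, 1 rose, 1 fell (16.7%, beside 17.7% of all panel genes) and 4 did not pass. Fos, a subunit of the AP-1 transcription factor, had a signal of 6819, 10332, 18513 and 7400 on HFD and 2814, 3065 and 4099 on NCD. HFD replicate 3 was the highest, and no HFD mouse was as low as an NCD mouse (3.02-fold higher, log2 change 1.59, SE 0.47, adjusted p = 0.0119). The call was lost without NCD replicate 1 (adjusted p = 0.0646) or NCD replicate 2 (0.0534) and with reference gene centring (0.0786). Nr4a1, a nuclear receptor induced by T cell receptor signals, had 1615, 1173, 1921 and 1613 on HFD and 5250, 3844 and 2592 on NCD. It was lower in every HFD mouse (log2 change -1.26, SE 0.35, adjusted p = 0.0097). Its call was lost without NCD replicate 1 (adjusted p = 0.0766), when only the 7 mice were fitted (0.0779) and with median centring (0.208). Fosb, a partner of the same AP-1 family, overlapped between the diets (2193 to 7702 and 4016 to 4838, log2 change -0.19, SE 0.43, adjusted p = 0.756), and its sign turned with median centring. Klf4, a zinc finger factor, had 1310, 115, 1069 and 1830 on HFD and 1833, 2523 and 2052 on NCD. HFD replicate 2 was far below the other mice, and the gene did not pass (log2 change -1.52, SE 0.63, adjusted p = 0.0868). The log2 change of Klf4 was -0.63 without that mouse, and -1.95 without HFD replicate 4, where it passed (adjusted p = 0.0298).

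**Figure D2:**
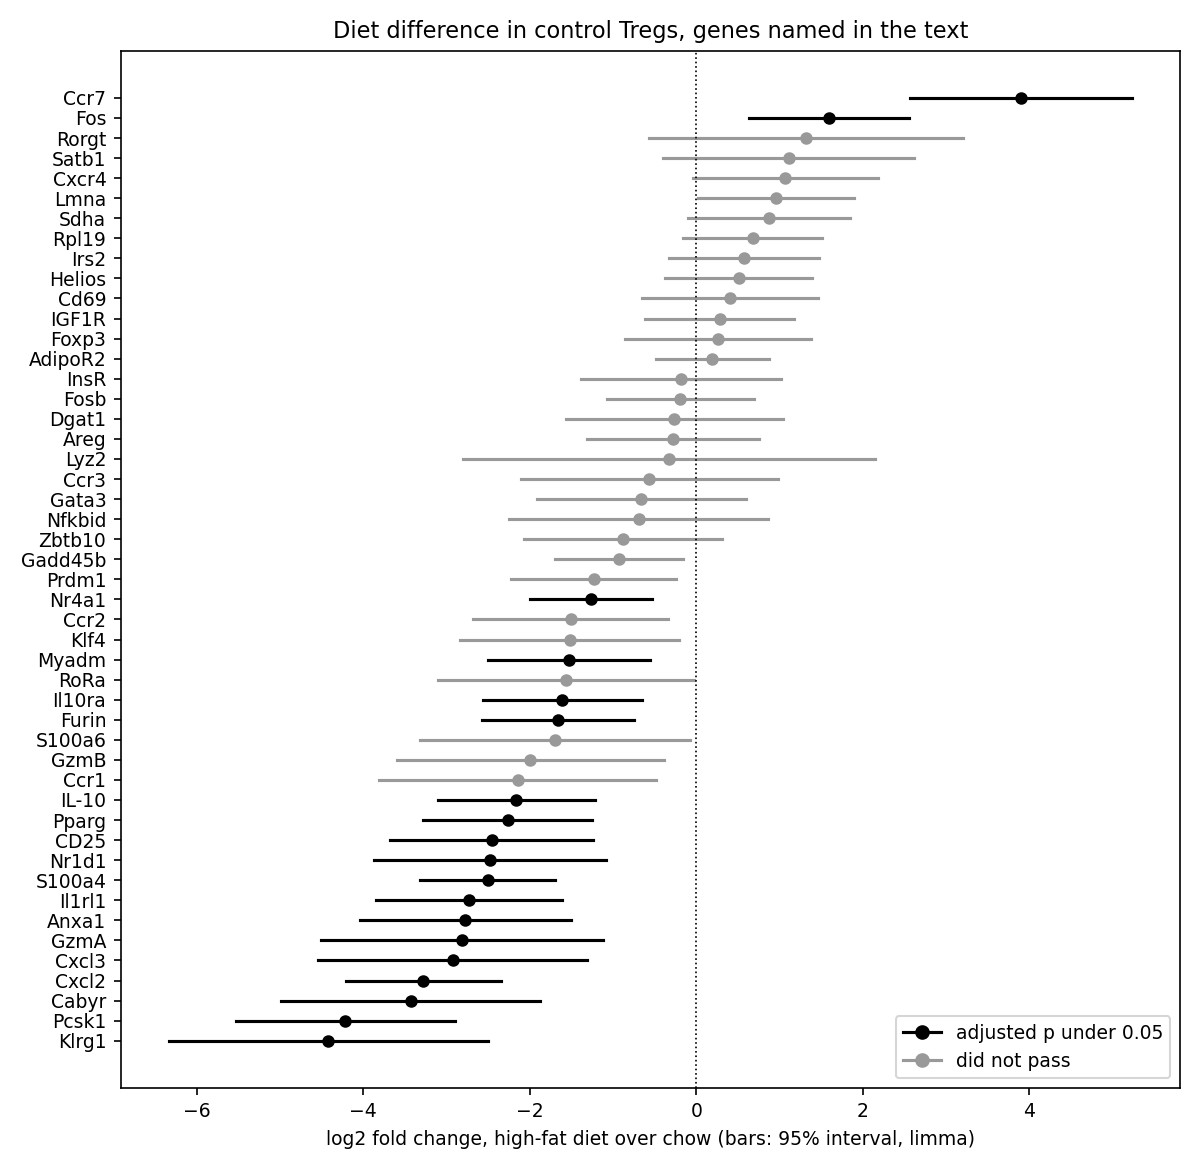
Log2 fold change of HFD over NCD in control Tregs for genes named here (points) with 95% limma intervals (bars), black where the adjusted p was under 0.05 and grey where it was not. Of the black points drawn, only Ccr7 and Fos lie above 0, and Klrg1 at -4.42 and Pcsk1 at -4.21 lie lowest.

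Nr1d1, Cabyr and Myadm also fell. Nr1d1, the circadian repressor Rev-erbα, had a signal of 22.4, 40.0, 20.9 and 20.8 on HFD and 66.6, 244 and 183 on NCD. All HFD mice were lower (log2 change -2.48, SE 0.67, adjusted p = 0.00833), at 5 to 61 counts, and the call was lost without NCD replicate 2 (adjusted p = 0.0608) and with median centring (0.0503). It was the 1 gene of 4 on the list of T helper fate factors to pass; RoRa, a nuclear receptor that binds the same response elements, had 312 to 1234 on HFD and 1220 to 3314 on NCD and did not (log2 change -1.56, SE 0.74, adjusted p = 0.141). Cabyr, a calcium-binding protein known from the sperm tail, had 81.5, 26.9, 10.9 and 83.4 on HFD and 406, 488 and 369 on NCD. The NCD mice were close together and all higher (log2 change -3.43, SE 0.75, adjusted p = 0.00153). Counts of Cabyr were 40, 41, 14 and 20 in the HFD mice. Myadm, a membrane protein first described in myeloid cells, had 177, 162, 582 and 75.0 on HFD and 625, 583 and 445 on NCD. HFD replicate 3 lay among the NCD mice (log2 change -1.53, SE 0.47, adjusted p = 0.0173). The call of Myadm was lost under 7 of 21 alternatives, among them the omission of HFD replicate 4, NCD replicate 1 or NCD replicate 2. Gadd45b, a stress-induced gene, did not pass (log2 change -0.92, SE 0.37, adjusted p = 0.0787). It passed with reference gene centring (0.0452) and without HFD replicate 4 (0.0381), and its log2 change was -0.58 without HFD replicate 3.

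Of 6 genes on the core Treg identity list 1 fell, CD25, and 5 did not pass, with a median of 0.39. The share that fell, 16.7%, was close to the 17.7% of all panel genes. Foxp3 had a signal of 4878, 4986, 2126 and 3798 on HFD and 3058, 2107 and 4721 on NCD. The groups overlapped, and the 95% interval of the log2 fold change, -0.86 to 1.38 around 0.26, allows a change in either direction (adjusted p = 0.75). With reference gene centring its sign turned. Helios, a transcription factor of Tregs formed in the thymus, had 2425 to 3854 on HFD and 1735 to 2844 on NCD (log2 change 0.51, SE 0.42, adjusted p = 0.421). Satb1, a chromatin organiser that Tregs usually hold low, had 836 to 2668 and 422 to 1508 (log2 change 1.11, SE 0.73, adjusted p = 0.283). Of 7 activation and checkpoint receptors 1 fell, Klrg1 (14.3%, beside 17.7% of all panel genes), and the median was 0.23. Cd69, an early activation marker, did not pass (log2 change 0.40, SE 0.51, adjusted p = 0.608).

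None of the 3 insulin and IGF signalling genes passed by limma. InsR, the insulin receptor, which is intact in these mice, had a signal of 104, 49.8, 89.1 and 125 on HFD and 159, 59.5 and 103 on NCD. The diets overlapped (log2 change -0.18, SE 0.58, adjusted p = 0.818, 95% interval -1.39 to 1.02), and its sign turned with median centring. The adaptor Irs2 (350.3 to 529 and 172 to 511, log2 change 0.58, SE 0.43, adjusted p = 0.362) and IGF1R (log2 change 0.28, SE 0.43, adjusted p = 0.688) also overlapped, and IGF1R changed sign with reference gene centring. Neither of the 2 adiponectin receptors passed. AdipoR2 had 528 to 755 on HFD and 547 to 618 on NCD (log2 change 0.19, SE 0.33, adjusted p = 0.707), with the other sign under reference gene centring. LeptinR was left out of that list because its panel name had no match. It rested on 1 to 16 counts, overlapped between the diets and did not pass (log2 change -2.05, SE 0.85, adjusted p = 0.0868). LeptinR passed without HFD replicate 1 and without NCD replicate 3. Of the 2 genes on the lipid metabolism list 1 fell, Pparg (50.0%, beside 17.7% of all panel genes). Dgat1, an enzyme of triglyceride synthesis, had 3245, 2700, 335 and 3172 on HFD and 2528, 1767 and 2064 on NCD. HFD replicate 3 alone was low, and the log2 fold change of Dgat1 went from -0.26 (adjusted p = 0.767) to 0.53 without it. None of the 4 reference genes passed in controls, and their median was 0.51. The ribosomal gene Rpl19 (17317 to 24741 and 8469 to 24279, log2 change 0.68, SE 0.40, adjusted p = 0.246) and the mitochondrial enzyme Sdha (log2 change 0.88, SE 0.47, adjusted p = 0.193) did not pass; Sdha was higher in every HFD mouse than in every NCD mouse, and Rpl19 was not. Without NCD replicate 3 the log2 change of Rpl19 was 1.14 and passed (adjusted p = 0.0443).

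**Figure D3:**
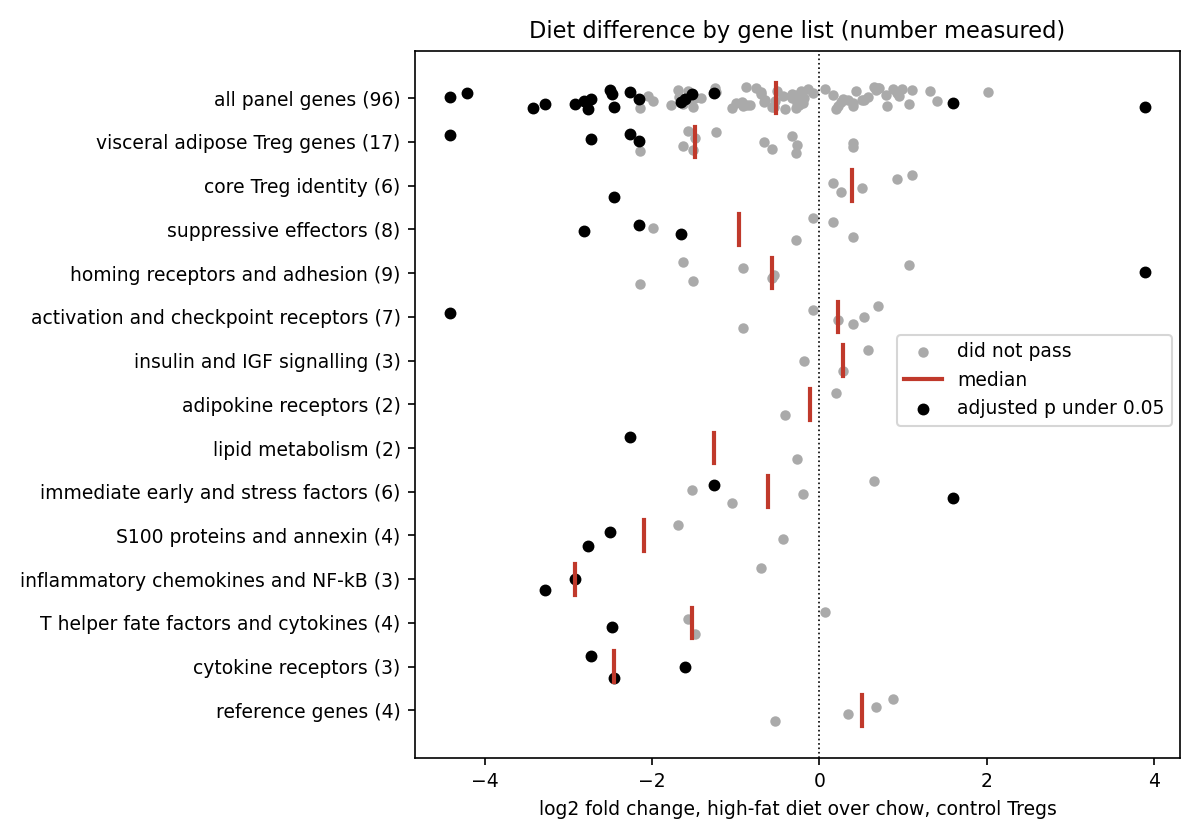
Log2 fold change of HFD over NCD in control Tregs (horizontal axis) for the members of each gene list, black where the adjusted p was under 0.05, with the list's median as a red bar; 2 panel genes are counted but not drawn. The cytokine receptors at -2.46 and the chemokine list at -2.92 lie left of the median of all genes at -0.52, while core Treg identity at 0.39 and the reference genes at 0.51 lie right of it.

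HFD replicate 3 had a signal of 164 for Cdkn1a, 184 for Tnfrsf9 and 437 for Lrig1, each far under the other 3 HFD mice; these genes were picked after their values were seen. Without it 24 genes passed, and all 20 were among them; of the genes named here Prdm1 (log2 change -1.44, adjusted p = 0.0357) and Lmna (1.27, 0.0363) were added. NCD replicate 3 had the highest panel total and Rpl19 at 19.2% of the panel, beside 7.70% and 9.90% in the other NCD mice and 17.3% to 23.6% in HFD mice. Without it 26 genes passed, among them 19 of the 20. Rescaling every sample to a single panel total called the same 20 genes. Without both replicates at once 22 genes passed, 18 of them among the 20, and GzmA and Nr1d1 were lost.

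The same diets were given to mice whose Tregs lack the insulin receptor (Foxp3-YFP-Cre with Insr-fl/fl; 5 on HFD and 3 on NCD), which share no animal with the controls. There 17 of 96 genes passed (17.7%), all lower on HFD (7 without knockout NCD replicate 3 and 11 without knockout HFD replicate 5), and 8 of them had also fallen in controls: Cxcl2, Pcsk1, S100a4, Pparg, Cabyr, Anxa1, Nr1d1 and GzmA. All 20 genes called in controls had the same sign in knockouts, but in 10 of them the knockout diets overlapped. Fos (log2 change 0.31, adjusted p = 0.678) and Il10ra (-0.43, adjusted p = 0.578) were among those with small changes there. Over all 96 genes the median was -0.52 in controls and -0.46 in knockouts, so a shared sign alone says little. The 20 genes were picked by their size in controls, so their smaller size in knockouts shows nothing by itself. The difference of the diet effects was tested as an interaction, and by limma 0 of 96 genes passed (0%), with 12 at an unadjusted p under 0.05. Panel totals were at most 0.118% above 100000 in these knockout mice, but 3.37% to 26.7% above it in the NCD controls. The part of this difference in the interaction was not tested. After rescaling to a single panel total the interaction called 2 genes, voom on the recovered counts called 2 and array weights 7.

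The smallest p of the interaction belonged to Rorgt and Ccr7. Ccr7 had 2145 ± 884 on HFD (SD, n = 5) and 1350 ± 729 on NCD (n = 3) in knockouts, and all knockout chow mice were above the control chow mice at 244 ± 249 (n = 3). Its log2 fold change in knockouts was 0.74, and the interaction was 3.16 (SE 0.89, adjusted p = 0.0853). The interaction of Ccr7 passed in 5 alternatives, among them voom (0.0368), rescaling to a single panel total (0.0439) and leaving out control NCD replicate 3 (0.0113). Rorgt, the panel's name for a transcription factor of Th17 cells, had 1153, 1962, 339.5 and 329 in HFD controls and 263, 249.9 and 347 in NCD controls. In the HFD controls 2 mice were high and 2 near the chow level, and the gene did not pass (log2 change 1.32, SE 0.91, adjusted p = 0.314). It fell in knockouts (log2 change -3.64, SE 0.87, adjusted p = 0.00462), a call lost without knockout NCD replicate 3 (adjusted p = 0.0791), and the interaction of 4.96 did not pass (adjusted p = 0.0634). It passed in 8 alternatives, among them a pseudocount of 10 (0.0303), median centring (0.0202), voom (0.0215) and the omission of control HFD replicate 4 (0.0484), knockout HFD replicate 4 (0.0246) or knockout NCD replicate 1 (0.0033). Ccr3, the eotaxin receptor, rested on 3 to 17 counts in controls, at 5.25 to 13.2 on HFD and 9.52 to 17.9 on NCD, and fell in knockouts (log2 change -3.61, SE 0.71, adjusted p = 0.00209). Its interaction was 3.05 (adjusted p = 0.222). Lmna, the gene of lamin A/C, had a log2 change of 0.96 in controls (adjusted p = 0.141; passing with median centring, 0.0143) and -0.80 in knockouts (interaction adjusted p = 0.222). Zbtb10, a zinc finger factor, fell in knockouts (log2 change -2.54, SE 0.55, adjusted p = 0.00288) and did not pass in controls (log2 change -0.88, SE 0.57, adjusted p = 0.283).

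**Figure D4:**
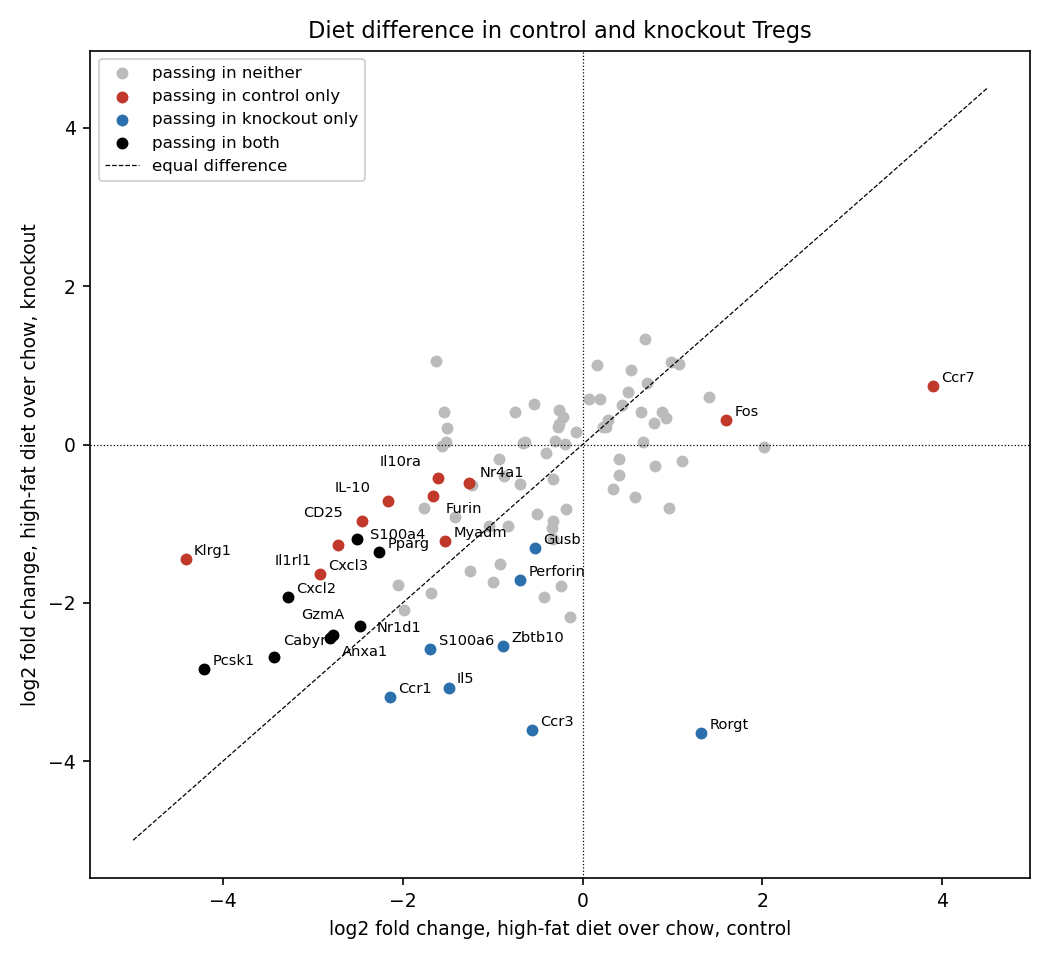
Log2 fold change of HFD over NCD in control Tregs (horizontal axis) against that in insulin receptor knockout Tregs (vertical axis), 1 point per gene, coloured by where the gene passed; 2 panel genes are not drawn. Pcsk1 at -4.21 and -2.84 is low in both, while Ccr7 at 3.89 and 0.74 lies far below the dashed line of equal difference.

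Set among all groups of the series, the chow-fed controls held the highest mean of Il1rl1 and CD25. The mean signal of Il1rl1 was 8741 ± 836 in NCD controls (SD, n = 3), 4242 ± 2324 in NCD knockouts (n = 3), 3262 ± 1651 in controls aged to 52 weeks on chow (n = 3), 1736 ± 616 in HFD knockouts (n = 5), 1395 ± 529 in HFD controls (n = 4) and 559 ± 359 in aged knockouts (n = 6). The NCD and aged controls did not overlap, whereas HFD controls and HFD knockouts did. The mean of CD25 was 6046 ± 789.9 in NCD controls, 2786 ± 913 in NCD knockouts, 2627 ± 1071 in aged controls, 1390 ± 206 in HFD knockouts, 1112 ± 229 in HFD controls and 731 ± 851 in aged knockouts, with the same n. Its NCD controls lay above every mouse of the other 5 groups. Ccr7 ran the other way, highest in the 2 HFD groups at 2682 ± 1080 in controls and 2145 ± 884 in knockouts, and lowest among control groups in aged mice at 236 ± 135. Its 2 HFD groups overlapped, as did its NCD and aged controls.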

How the data were processed

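RNA of sorted VAT Tregs was counted on a NanoString nCounter SPRINT with a custom panel of 96 genes, per the labels' protocols. The values are the signal as deposited by the authors: linear, normalised to a panel total near 100000, with further steps not given in the sources used here. From it the count of each gene was recovered as a whole multiple of a step per sample (tolerance 0.02), for 99.9% of 2304 values.

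With limma 3.58.1 in R 4.3.3, log2(signal + 1) was fitted with 6 group means over all 24 samples, each 1 mouse, so the groups share 1 estimate of spread. P-values are two-sided and Benjamini-Hochberg adjusted over the 96 genes, at a threshold of 0.05. All panel genes entered the fit. The script was tested on simulated data. Alternatives were other pseudocounts, filters, centrings and weights, a replicate block, and leaving out each mouse. The count model listed as an alternative was replaced by voom, because the unit is not raw counts.

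The samples were chosen by label, but the gene lists, tests and question were chosen with earlier results of these data known. Named genes were the 25 with the smallest p, plus a set list of identity, insulin, fat Treg and reference genes and the 5 with the smallest p in the knockout and interaction tests. A few others are named where they limit a result. Gene names were matched to RefSeq by symbol for 88 genes and by synonym for 4. Of the rest, 1 matched several genes and 3 matched none. All keep their panel names, but those without a single match entered no gene list other than that of all panel genes. Results for 2 panel genes are not reported here, though counts of genes include them. Each p-value sets a difference against a spread between mice that is estimated over all 6 groups. With 1 sample per mouse, that spread includes counting error, which is wide where counts are few.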

Additional observations from a re-analysis of the deposited data

Results flagged for a closer look

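In the 4 HFD controls a mouse stood apart when its gap to the nearest mouse, divided by the range of the group, was above Dixon's 95% critical value for 4 samples. This picked 11 of 96 genes, where about 1 in 20, or 4.8, would be picked among independent, normally distributed values. The genes were read in the same 4 mice and are not independent, so 4.8 is only a rough guide. The lone mouse was replicate 3 in 7 of the 11 genes, replicate 2 in 3, replicate 1 in 1 and replicate 4 in 0. Besides Cdkn1a, Tnfrsf9 and Lrig1, given above, replicate 3 was alone in 4 genes. Its signal was lowest for Dgat1 (335), Furin (253) and Helios (2425) and highest for Areg (1346). Replicate 2 was highest for Ccr7 (4294) and Nr1d1 (40.0) and lowest for AdipoR2 (528). Furin, Ccr7 and Nr1d1 kept their calls without the mouse that stood apart.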

How the results depend on the processing

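In control Tregs 16 to 26 genes were called when each mouse was left out in turn, 16 without NCD replicate 1 or 2 and 26 without NCD replicate 3, and 18 to 25 under the other settings. Of the 20 called genes 11 passed in all 21 alternatives (Cxcl2, Pcsk1, S100a4, Ccr7, Il1rl1, Klrg1, IL-10, Pparg, Cabyr, Anxa1 and CD25), and none changed sign in any. In knockouts the count was 8 with reference gene centring and 28 with array weights. It was 7 to 16 when each mouse was left out, with 11 without HFD replicate 5 and 7 without NCD replicate 3. Gusb, 1 of the 4 reference genes, was itself lower on HFD in knockouts by limma (adjusted p = 0.0403). Reference gene centring of the knockouts thus rests partly on a called gene. The interaction, where the calls were of Rorgt or Ccr7 except for others with array weights, called 1 gene with a pseudocount of 10, 1 with median centring, 2 after rescaling to a single panel total, 7 with array weights, 2 with voom, and 0 to 1 when each mouse was left out, with 1 without control HFD replicate 4, control NCD replicate 3, knockout HFD replicate 4 or knockout NCD replicate 1. Without control HFD replicate 3 and control NCD replicate 3 together it called 1. Rescaling, voom and array weights for knockouts and the interaction, and leaving out both replicates 3, were chosen after seeing the data. Over the panel 27 genes, none of the 20 called, changed sign under either centring. Among those whose fold change the text gives these were, with median centring, InsR (0.44), Areg (0.35), Lyz2 (0.29), Fosb (0.43), Dgat1 (0.36) and Ccr3 (0.057), and with reference gene centring Foxp3 (-0.078), IGF1R (-0.056) and AdipoR2 (-0.15). The sign also changed for InsR with depth as a covariate (0.080) and for Fosb with voom (0.15). When each control mouse was left out, InsR ran from -0.54 to 0.16 (above 0 without HFD replicate 2 or NCD replicate 1), Lyz2 from -1.22 to 0.34 (above 0 without the same mice), Foxp3 from -0.021 (without NCD replicate 2) to 0.56, Fosb from -0.53 to 0.069 (without HFD replicate 4) and Dgat1 from -0.56 to 0.53 (without HFD replicate 3). Dgat1 also turned with array weights (0.24) and without both replicates 3 (0.52), as did Cd69 without both (-0.17). The deviations of same-numbered mice of the 2 diets from their group means had r of 0.09, -0.19 and -0.07. With so few mice these values cannot settle whether the numbers pair them. A replicate block called 19 genes in controls, losing Myadm, 14 in knockouts and 0 in the interaction. The quasi-likelihood count test was not run. The cause of these changes was not tested. Depth limits the genes under 20 counts, 13 to 30 of 96 in a mouse.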
